A study of Mus musculus with 20 samples.

Results

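The Bcl-2 family sets the threshold at which a cell dies by the mitochondrial route, and 10 of its genes were followed here through the RNA bound by AGO2 and through the mRNA of the mouse hippocampus. They were taken by name from 28073 measured genes: the anti-apoptotic Bcl2, Bcl2l1 (Bcl-xL), Bcl2l2 (Bcl-w) and Mcl1, the pore-forming Bax and Bok, and the BH3-only genes Bcl2l11 (Bim), Bbc3 (Puma), Hrk (Harakiri) and Bad. Of the 10, 6 could be tested in AGO2-bound RNA (Bcl2, Bcl2l2, Mcl1, Bax, Bok and Bbc3) and 7 in mRNA (the same genes and Hrk). Hrk mRNA was lower than in GFP mice with either sponge, by 0.75 on the log2 scale with the miR-124 sponge and by 0.39 with the miR-125 sponge. Bax mRNA was lower with the miR-124 sponge. In fits that left out 1 mouse, Hrk with the miR-125 sponge did not pass the test in 5 of 6. Bax with the miR-124 sponge did not pass in 2 of 6. Mcl1 and Bbc3 lay among the most AGO2-enriched 3′UTRs. With the miR-124 sponge the AGO2-bound RNA of all 6 was estimated lower, with log2 changes from −0.44 (Bok) to −1.16 (Bax). The median of all 3′UTRs was 0.04 there, and these values depend on how the libraries are scaled. Of the 6, only Mcl1, at −0.98, passed the test, and it did not pass in 3 of 4 fits that left out 1 library.

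In this family, Bax and related proteins open the outer mitochondrial membrane and release cytochrome c, the anti-apoptotic members hold them back, and the BH3-only members bind and block the anti-apoptotic ones or activate the pore formers. Many of the genes are controlled through the level of their mRNA, since several of the proteins turn over quickly. Mature neurons are known to resist this route strongly, and members of the miR-29 family are known to repress several BH3-only transcripts in them.

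The assays were a RIP-seq and an mRNA-seq, both on adult male C57BL/6 mice whose hippocampi had been injected with AAV5 vectors acting under a synapsin promoter, which is active in neurons. For the RIP-seq, GFP-tagged AGO2 was produced from 1 transcript together with a sponge, a decoy RNA that binds a chosen miRNA: miR292sp (the control, for a miRNA that the brain lacks), miR124sp or miR125sp. RNA was precipitated with GFP antibodies from these mice and from sham-injected mice as background, with 2 libraries for each of the 4 groups, and each library pooled the lysate of a pair of injected hippocampi. For the mRNA-seq, 3 mice producing GFP with miR124sp were set against 3 mice producing GFP alone, and 3 mice producing GFP with miR125sp against 3 other GFP mice, each mouse being 1 library of hippocampal RNA without precipitation.

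The RIP-seq libraries held 2417942 to 5072501 counts in 3′UTRs and the mRNA-seq libraries 6950522 to 27833176 counts in genes. Although the labels give the cell type as hippocampal neurons, the mRNA came from whole tissue, in which 12 of 12 astrocyte markers and 12 of 13 oligodendrocyte markers had counts in every mouse. In such bulk samples, fewer cells of a type and less RNA per cell cannot be told apart. The summed astrocyte markers, mostly Slc1a2, made up 66211 to 66784 CPM (counts scaled to library size) in the sham libraries, 16188 to 17092 with miR292sp, 46403 to 46717 with miR124sp and 37080 to 39401 with miR125sp, while the summed neuron markers lay between 8310 and 9861 in all 8 RIP libraries. Astrocyte marker RNA therefore moved with the RIP groups, and its part in the results on AGO2-bound RNA was not tested.

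The 3′UTRs of the family were searched for matches to the seeds (bases 2 to 8) of 9 miRNAs, 1 of them a target of the sponges. The mature sequences, from RefSeq, and the letters found are shown for miR-125b, which the miR-125 sponge binds, and for miR-29a, whose matches were the most frequent in the family. Capitals mark the seed, and miR-124 and miR-292 were not searched here.
miR-125b-5p: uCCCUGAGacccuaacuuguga
miR-29a-3p: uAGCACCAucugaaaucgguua

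A match to the miR-125b seed, read as CTCAGGG on the sense strand of the longest annotated 3′UTR, was present once in Mcl1 and once in Bcl2 and in no other member. This 7-letter motif occurs in 12.6% of the 19816 genes with a 3′UTR, and in 23.0% of 3′UTRs near the length of Mcl1 (2353 bases) and 35.1% of those near the length of Bcl2 (5086 bases), where near means 0.8 to 1.25 times the length. The sites are given with the positions of the match on NCBIM37 (mm9) and with the match in capitals.
Mcl1, chr3:95466904-95466910, plus strand: cttacacgtctCTCAGGGaaaaaacatgc
Bcl2, chr1:108436676-108436682, minus strand: ttcagtgattcCTCAGGGcctgaacttgc

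Matches to the miR-29a seed, TGGTGCT, were present in 5 of the 10 members, namely Hrk, Bbc3, Bcl2l2, Bcl2l11 and Mcl1, where 12.4% of all genes hold one. Length matters for this share, since 43.8% of 3′UTRs near the length of Hrk (5068 bases) hold the motif, 36.7% near that of Bcl2l11 (4218 bases), 28.1% near that of Bcl2l2 (3177 bases), 22.5% near that of Mcl1 and 9.71% near that of Bbc3 (971 bases). The 3 matches in Hrk and the 2 in Bbc3 are shown because both are BH3-only genes with repeated matches, which start at bases 669, 692 and 867 of the 3′UTR in Hrk and at 316 and 401 in Bbc3.
Hrk, chr5:118635088-118635094, plus strand: tatagtgtgtcTGGTGCTtcacttcacag
Hrk, chr5:118635111-118635117, plus strand: tcacagtttctTGGTGCTaagtgtatcct
Hrk, chr5:118635286-118635292, plus strand: ggggggaggggTGGTGCTcacagggctta
Bbc3, chr7:16902899-16902905, plus strand: ggaaaggctgcTGGTGCTggctgcccgtt
Bbc3, chr7:16902984-16902990, plus strand: cctcaggccccTGGTGCTtccccccctcc

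The other motifs were those of miR-34a (CACTGCC, in Bcl2l2 and Bax), miR-16 (TGCTGCT, in Bcl2l2 and Bcl2), miR-181a (TGAATGT, in Bcl2, Bcl2l1 and Bcl2l11), miR-92a (GTGCAAT, in Bcl2l11, Mcl1 and Bad), miR-21a (ATAAGCT, in Bcl2l11 and Hrk), let-7a (CTACCTC, in Bcl2l1) and miR-9 (ACCAAAG, in Bcl2l11). All of these were searched on the sense strand only. In Bcl2l2 a miR-29a match overlapped miR-16 matches. Bok, with a 3′UTR of 600 bases, held none of the 9 motifs. A match is a stretch of letters and not a measured binding site.

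**Figure D1:**
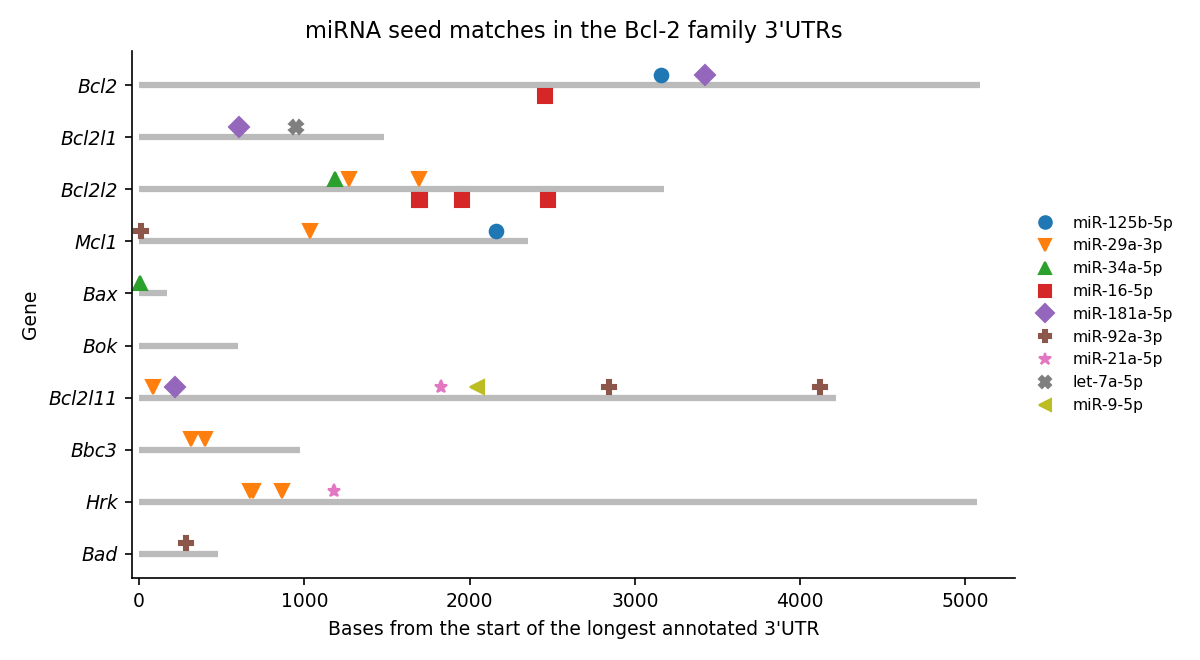
Seed matches of 9 miRNAs (symbols) along the longest annotated 3′UTR of the 10 genes, with bases from its start on the horizontal axis and grey bars as long as the 3′UTR; miR-16 is drawn under the bar and the others above it. The miR-29a triangles stand in 5 genes and the miR-125b circles in Bcl2 and Mcl1, while Bok carries no symbol.

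The first comparison asked which members were bound by AGO2 in neurons, by setting miR292sp against sham. The relative enrichment in AGO2 binding is the count of a 3′UTR divided by the mean of a reference set in the same library. It is then divided by the mean of the sham libraries, so that sham lies at 1. The reference set is Gapdh with its nearest 50 neighbours in each direction, when 3′UTRs are ordered by miR292sp over sham. It was thus picked by the contrast tested here, and held 0.70% and 0.75% of counts with miR292sp against 2.01% and 1.92% in sham. The level of the fold changes, the share of higher calls and the p-values on this scale depend on that choice. They are not an independent test of enrichment. In edgeR's quasi-likelihood test with this scaling, all of the 6 members tested were higher with miR292sp than in sham, where 60% of the 8203 3′UTRs passed the threshold (adjusted p below 0.05), 59.4% higher and 0.585% lower. The members' median log2 fold change was 2.39 and that of all 3′UTRs 1.26. With TMM scaling, which takes most 3′UTRs as unchanged, the median of all 3′UTRs became −0.11 and 53.1% instead of 99.0% of the calls were higher. Mcl1, Bcl2l2 and Bbc3 were called on that scale, at smaller log2 fold changes of 2.50, 1.48 and 3.09.

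Among the anti-apoptotic genes, Mcl1, whose protein is short-lived and is needed for the survival of many cell types, has its 3′UTR at chr3:95464747-95467099. Counts of Mcl1 were 2733 and 2904 for miR292sp, against 332 and 232 for sham, a relative enrichment of 14.6 and 14.7. The miR292sp libraries agreed closely and lay far above sham (log2 fold change 3.87 ± 0.20 SE, n = 2 libraries per group, edgeR adjusted p = 9.49e-11). Mcl1 stood at rank 8036 of 8203, rank 1 being the lowest enrichment. Bcl2l2, which encodes Bcl-w, an anti-apoptotic protein abundant in the brain, was counted at chr14:55504371-55507071 with 268 and 321 counts against 68 and 51 in sham. Of the 2701 bases of this row, 2562 are shared with other rows of the gene, all of which held 0 counts. How reads in shared bases were counted is not known, so these counts may not stand for the whole 3′UTR. Its enrichment was 6.74 and 7.67, again without overlap (log2 fold change 2.84 ± 0.36, adjusted p = 2.61e-06).

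Bcl2, the founding anti-apoptotic gene, lay close to the middle of all 3′UTRs. Its 3′UTR (chr1:108434755-108439840) held 148 and 246 counts with miR292sp and 144 and 76 in sham, an enrichment of 2.05 and 3.24 against 1.20 and 0.801 in the sham libraries. The groups did not overlap on this scale (log2 fold change 1.40 ± 0.41, edgeR adjusted p = 0.00711), but the value was near the median of all 3′UTRs, and the call was lost without miR292sp replicate 6 (1.14, adjusted p = 0.0715) and without sham replicate 8 (0.67, adjusted p = 0.255). With TMM scaling the difference was 0.03 (adjusted p = 0.964). The 3′UTR of Bcl2 overlaps a gene on the other strand, D630008O14Rik, whose reads could not be told apart where strand was not used in counting.

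Of the pore formers, Bax was counted in its 167-base 3′UTR at chr7:52717065-52717231, with 72 and 104 counts with miR292sp and 37 and 29 in sham. Enrichment of Bax was 3.26 and 4.47, above both sham libraries (log2 fold change 1.94 ± 0.55, edgeR adjusted p = 0.00554), and the call was lost without sham replicate 8 (1.47, adjusted p = 0.0874). Bok, a relative of Bax that can permeabilise membranes by itself, held 263 and 442 counts against 151 and 163 at chr1:95591740-95592339. Its enrichment of 2.45 and 3.92 did not overlap that of sham (log2 fold change 1.67 ± 0.34, adjusted p = 0.000316). With TMM scaling neither was called, at 0.58 (adjusted p = 0.393) for Bax and 0.32 (adjusted p = 0.436) for Bok.

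Of the BH3-only genes only Bbc3, which encodes the p53-induced activator Puma, passed the count filter. The Bbc3 3′UTR at chr7:16902584-16903554 held 271 and 445 counts with miR292sp and 13 and 33 in sham. This gave an enrichment of 16.5 and 25.7, against 0.475 and 1.53 in the sham libraries (log2 fold change 4.43 ± 0.49, edgeR adjusted p = 4.31e-07). Its rank was 8132 of 8203, the highest of the 6. The sham level behind this ratio rests on few counts, so that its size is less certain than that of Mcl1.

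Bcl2l11, which encodes the BH3-only activator Bim, failed the filter of 10 counts in every library because of the sham libraries. Its longest 3′UTR row (chr2:127984066-127988283) had 190 and 231 counts for miR292sp, 75 and 39 for miR124sp, 51 and 97 for miR125sp, but 4 and 0 for sham. All 6 GFP-AGO2 libraries were above both sham libraries. Of the 4218 bases of this row, 2899 are shared with other rows of the gene that held 0 counts, so it may not stand for the whole 3′UTR. No test is given for Bcl2l11, since it passes a looser filter only through the groups where it is high. Another of its rows, of 1797 bases, had 40 counts in miR125sp replicate 2 and 1 to 4 in the other libraries.

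For the remaining 3 members the RIP counts were too few for a comparison. The row of Hrk, a BH3-only gene typical of neurons, covers 67 bases where the annotation gives a 3′UTR of 5068 bases in 2 blocks, and held 9 and 3 counts with miR292sp, 0 to 4 in the other libraries. No row of Bcl2l1, whose product Bcl-xL is the main anti-apoptotic protein of mature neurons, had more than 4 counts, and no row of Bad, a BH3-only gene held inactive by survival kinases, more than 15. Most rows of Bcl2l1 and Bad share bases with other rows of the same gene, and over all genes the 10519 rows whose bases are all shared had a median of 0 counts against 63 for the 13321 rows that share none. These low counts were not read as a measure of binding.

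Above the 4-fold enrichment that the study took as its limit for a target stood Bbc3, Mcl1 and Bcl2l2 with miR292sp, where 27.2% of the 3′UTRs did. With miR125sp these were Bbc3 and Mcl1 (6.18% of the 3′UTRs), and with miR124sp Bbc3 (2.8%). Bax lay just under the limit with a mean of 3.86. With library totals as the scale in place of the genes around Gapdh, Bcl2l2 with miR292sp was at 2.65 and Mcl1 with miR125sp at 3.32, both below the limit. Bbc3 in every sponge group and Mcl1 with miR292sp stayed above it.

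**Figure D2:**
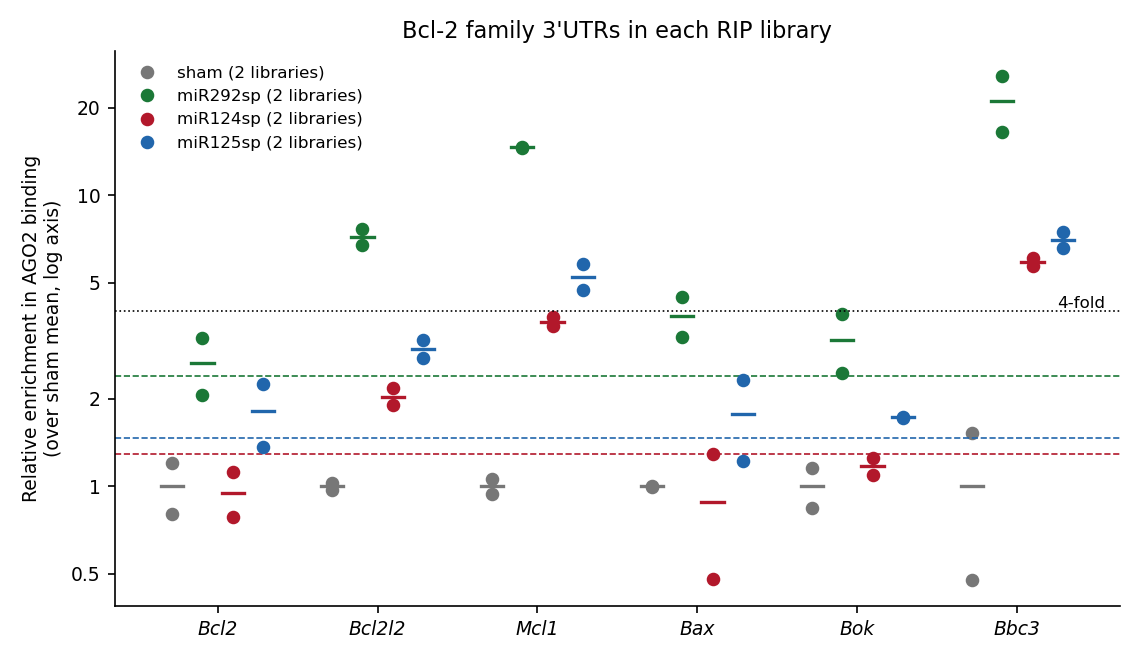
Relative enrichment in AGO2 binding (log axis, sham mean at 1) of the 6 Bcl-2 family 3′UTRs in each of the 8 RIP libraries; points are libraries, short lines group means, dashed lines the medians of all 8203 3′UTRs in the group of that colour, and the dotted line 4-fold. Bbc3 and Mcl1 stand highest in all GFP-AGO2 groups, with the 2 miR292sp points of Mcl1 on top of each other, while Bcl2 and Bax with miR124sp lie around 1.

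The next comparisons asked whether the members were lost from AGO2 when miR-124 or miR-125 was sponged. Both use the same miR292sp libraries as control, and the tests between sponge vectors used TMM scaling. With miR124sp, Mcl1 was the 1 member of 6 called, and lower, where 8.56% of the 3′UTRs were called, 5.1% higher and 3.46% lower. These shares depend on single libraries, since leaving out 1 library lowered the 702 calls behind them to between 60 and 312. With miR125sp no member was called, where 1.41% of the 3′UTRs were (1.18% higher and 0.232% lower), and in that comparison 1 member (Mcl1) and 1406 3′UTRs had an unadjusted p below 0.05. DESeq2 called Mcl1 there as well, at −0.75 (adjusted p = 0.0168).

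Scaled to CPM, Mcl1 had 566 and 597 for miR292sp, 321 and 270 for miR124sp, 388 and 329 for miR125sp, against 115 and 91.3 for sham. Both sponges left it below both miR292sp libraries and above both sham libraries. The log2 fold change against miR292sp was −0.98 ± 0.20 with miR124sp (n = 2 libraries per group, edgeR adjusted p = 0.00797) and −0.70 ± 0.20 with miR125sp (adjusted p = 0.0893). The call with miR124sp was lost without miR124sp replicate 4 (−0.86, adjusted p = 0.0596), miR292sp replicate 5 (−1.02, adjusted p = 0.0758) or miR292sp replicate 6 (−0.94, adjusted p = 0.0980). In rank Mcl1 hardly moved, from 8036 to 7915 with miR124sp and 7942 with miR125sp.

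Bbc3 had 56.1 and 91.5 CPM with miR292sp, 44.9 and 38.1 with miR124sp and 38.8 and 45.7 with miR125sp. It was below both control libraries in all 4 sponge libraries, but the difference did not pass the test with miR124sp (−0.83 ± 0.41, edgeR adjusted p = 0.212) or miR125sp (−0.81 ± 0.41, adjusted p = 0.332). Bbc3 kept its place near the top, at ranks 8128 and 8074. Bcl2l2, at 55.5 and 66.0 CPM with miR292sp, had 38.7 and 30.6 with miR124sp and 39.1 and 46.8 with miR125sp. These values too were all below the control libraries, at −0.81 ± 0.35 (adjusted p = 0.155) and −0.50 ± 0.35 (adjusted p = 0.479).

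Bax and Bcl2 moved furthest in rank with miR124sp. Bax went from rank 5855 with miR292sp to 1442 with miR124sp and 5256 with miR125sp, on 16 and 34 counts with miR124sp. Its log2 fold change was −1.16 ± 0.54 with miR124sp (edgeR adjusted p = 0.182), a span of 2 standard errors from −2.24 to −0.08, and −0.36 ± 0.52 with miR125sp (adjusted p = 0.763). The miR124sp libraries of Bax, at 4.76 and 11.6 CPM, lay below the miR292sp libraries at 14.9 and 21.4. Against sham at 12.8 and 11.4, replicate 3 was lower and replicate 4 lay between the sham libraries. Scaled to the genes around Gapdh, replicate 3 was at 0.480 and replicate 4 at 1.29, against 1.00 and 0.996 in sham. Bcl2 went from rank 4510 to 1818 with miR124sp and to 5350 with miR125sp. On the CPM scale the Bcl2 groups overlapped, with 30.6 and 50.6 for miR292sp, 25.3 and 32.6 for miR124sp and 58.0 and 36.5 for miR125sp (−0.49 ± 0.41, adjusted p = 0.475, and 0.22 ± 0.40, adjusted p = 0.820). Bok changed least, by −0.44 ± 0.32 (adjusted p = 0.402) and −0.11 ± 0.32 (adjusted p = 0.893), with 54.5 and 90.9 CPM for miR292sp, 52.7 and 54.4 for miR124sp and 66.4 and 68.4 for miR125sp. The miR124sp libraries of Bok lay just below the lower control library and the miR125sp libraries between the control libraries.

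Of the members with a miR-125b match, Mcl1 was thus at −0.70 and Bcl2 at 0.22 with miR125sp, and neither passed the test. The direct comparison of miR124sp with miR125sp called 1 of the 8203 3′UTRs (0.0122%) and no member in edgeR, and no member had an unadjusted p below 0.05 there, against 430 3′UTRs. DESeq2 called no member either. The largest difference between the sponges was that of Bax, at −0.80 ± 0.55 (adjusted p = 0.932).

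How the level of the sponge libraries is set matters here. Scaled to the genes around Gapdh in place of TMM, the median of all 3′UTRs shifted to −0.97 with miR124sp and −0.75 with miR125sp. All 6 members were then called lower with miR124sp, as were 4105 of the 8203 3′UTRs, and 4 with miR125sp (Mcl1, Bbc3, Bcl2l2 and Bok), as were 3132 of the 3′UTRs, and higher calls made up 0.412% and 0.571% of all calls instead of 59.5% and 83.6%. Bax was at −2.14 and Mcl1 at −1.99 with miR124sp on that scale. The reference genes of that scale were picked by miR292sp over sham, so it is not independent of the miR292sp libraries compared here.

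**Figure D3:**
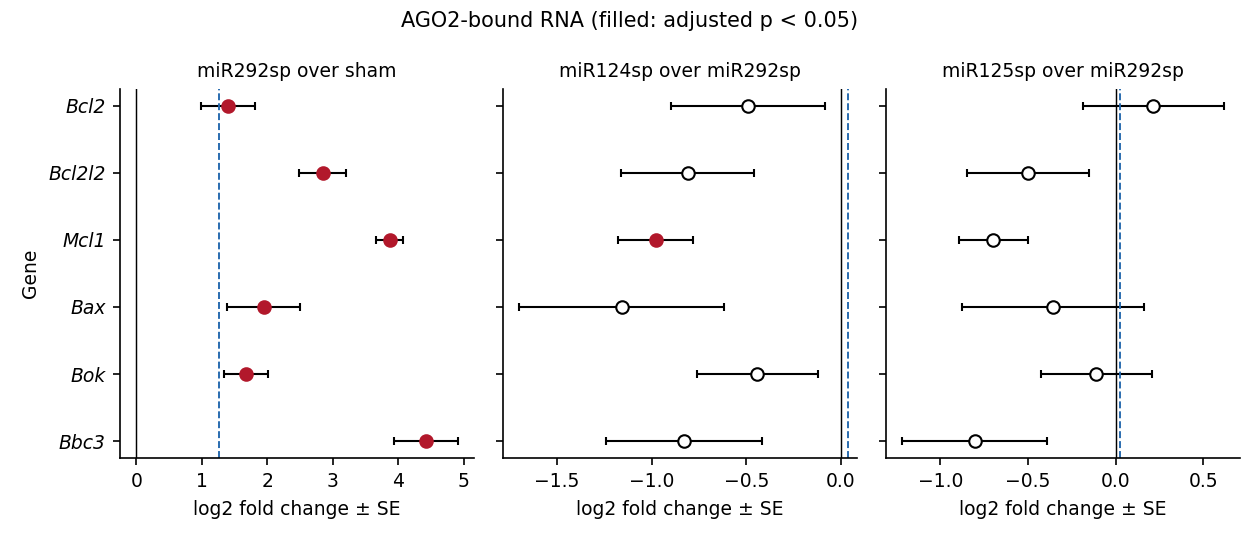
Log2 fold changes with standard errors (edgeR, n = 2 libraries per group) of AGO2-bound RNA for the 6 members in 3 comparisons, each panel with its own axis; filled points passed an adjusted p of 0.05, and the dashed line is the median of all 8203 3′UTRs. Against sham every point is filled, with Bbc3 and Mcl1 furthest to the right, and against miR292sp only Mcl1 with miR124sp is filled.

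By a rule of likeness, the 3′UTRs whose log2 scaled counts followed a member most closely over the 8 RIP libraries were named for the 3 members with the most counts. For Mcl1 these included Osbpl5 (Pearson r = 0.996) and Gatsl2 (0.996), for Bbc3 they were Ttll11 (0.990), D19Bwg1357e (0.988) and Eif1 (0.987), and for Bok Itm2b (0.923), Copz2 (0.904) and Ttc17 (0.903). The points of each correlation share the 8 libraries, their depth and their groups.

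In hippocampal mRNA the members differed widely in level. Per length of transcript (RPKM, over the 6 GFP mice, mean ± SD), Bcl2l2 stood highest at 71.3 ± 7.29, followed by Bax at 43.6 ± 4.97, Bok at 35.4 ± 6.40, Hrk at 35.2 ± 2.25, Mcl1 at 32.8 ± 2.08, Bbc3 at 5.32 ± 0.428 and Bcl2 at 4.22 ± 0.504. Bcl2l2 was above Bax in every mouse, and Mcl1 above Bbc3. The ranges of Bax and Bok, Bok and Hrk, Hrk and Mcl1, and Bbc3 and Bcl2 overlapped, so that their order is within the spread between mice. Bcl2l1, Bcl2l11 and Bad were too low to be tested, with 59, 36 and 56 counts over all 12 mice. Each of these has several RefSeq transcripts among those counted, between which the counting could have split or dropped reads, so their levels are uncertain. Bcl2 also has a shorter RefSeq transcript, with 0 to 4 counts per mouse, so the same limit holds for its level.

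Hrk showed the clearest change of any member. In the miR-124 experiment its mRNA level was 181, 212 and 188 CPM in the GFP mice and 103, 114 and 125 in the miR124sp mice. In the miR-125 experiment it was 182, 191 and 180 in the GFP mice and 135, 136 and 150 in the miR125sp mice. In either experiment every sponge mouse was below every GFP mouse, the 6 GFP mice of both experiments lay close together, and all miR124sp mice were below all miR125sp mice.

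With miR124sp, Hrk fell by 0.75 ± 0.09 SE on the log2 scale (n = 3 mice per group, edgeR adjusted p = 0.00376), to 59.4% of the GFP level. In that comparison 23.2% of the 13111 genes were called and 10.7% were lower. It was called in all 13 other settings tried, at −0.90 to −0.69, of which the lowest rests on 1 miR124sp mouse. With miR125sp, Hrk fell by 0.39 ± 0.05 (edgeR adjusted p = 0.0254), to 76.2% of GFP, where 0.227% of the 12771 genes were called, 0.0548% higher and 0.172% lower. It had the 4th smallest p of all genes there. The direction held in all 13 other settings (−0.44 to −0.31), but the call was lost without GFP replicate 14 (adjusted p = 0.122), GFP replicate 4 (0.0718), miR125sp replicate 24 (0.0544), replicate 6 (0.124) or replicate 9 (0.0859).

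Some of the mice also differ in a mark in the file headers that was read as combined sequencing runs. It is missing for miR124sp replicates 2 and 9 and, among the controls for miR125sp, for GFP replicates 14 and 15, while the miR125sp mice all have it. With the mark as a term over all 12 mice, Hrk was at −0.85 ± 0.09 with miR124sp (edgeR adjusted p = 0.000485) and at −0.31 ± 0.09 with miR125sp (adjusted p = 0.372). Without the unmarked mice it was at −0.90 with miR124sp, which leaves only miR124sp replicate 14, and at −0.36 with miR125sp, which leaves only GFP replicate 4 as control. Each of these values rests on an arm of 1 mouse that is assumed to vary like the others, and is given without its p.

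Bax had 43.2, 40.6 and 41.3 CPM in the GFP mice of the miR-124 experiment and 34.0, 31.1 and 34.3 in the miR124sp mice. In the miR-125 experiment it had 33.1, 34.1 and 34.8 in the GFP mice and 37.3, 32.2 and 34.6 with miR125sp. The miR124sp mice were below their own GFP mice without overlap, but they overlapped the GFP mice of the other experiment. The change with miR124sp was −0.32 ± 0.08 (edgeR adjusted p = 0.0162), and the call was lost without GFP replicate 15 (−0.29, adjusted p = 0.0829) or miR124sp replicate 2 (−0.27, adjusted p = 0.0823). With miR125sp the change was 0.03 ± 0.07 (adjusted p = 0.917).

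Bok was uneven among the miR124sp mice, at 34.2, 39.8 and 70.3 CPM, against 51.6, 63.0 and 59.8 in their GFP mice. The miR124sp mouse with the high value, replicate 9, was above all 3 GFP mice and the others below them. The difference was −0.27 ± 0.22 (edgeR adjusted p = 0.418), and −0.64 (adjusted p = 0.00147) without replicate 9. In the miR-125 experiment Bok had 44.8, 40.4 and 44.3 in the GFP mice and 53.6, 49.2 and 57.8 with miR125sp, without overlap. That difference of 0.31 ± 0.07 missed the threshold in edgeR (adjusted p = 0.125) and passed it in DESeq2 (0.31, adjusted p = 0.0467).

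The remaining members did not pass the test in either experiment. Mcl1, at 107 to 127 CPM in all 12 mice, changed by 0.05 ± 0.07 with miR124sp (edgeR adjusted p = 0.619) and −0.04 ± 0.06 with miR125sp (adjusted p = 0.816), spans of 2 standard errors of −0.08 to 0.18 and −0.16 to 0.08. Bcl2l2, at 213 to 290 CPM, changed by −0.16 ± 0.09 and 0.02 ± 0.06. Bcl2, at 24.6 to 34.5 CPM, changed by −0.18 ± 0.09 and −0.11 ± 0.09. Bbc3, at 9.16 to 14.4 CPM, changed by 0.28 ± 0.15 and 0.01 ± 0.12, and its GFP and sponge mice overlapped in both experiments. The members' median log2 fold change was −0.18 with miR124sp and 0.01 with miR125sp, and that of all genes −0.01 in both.

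**Figure D4:**
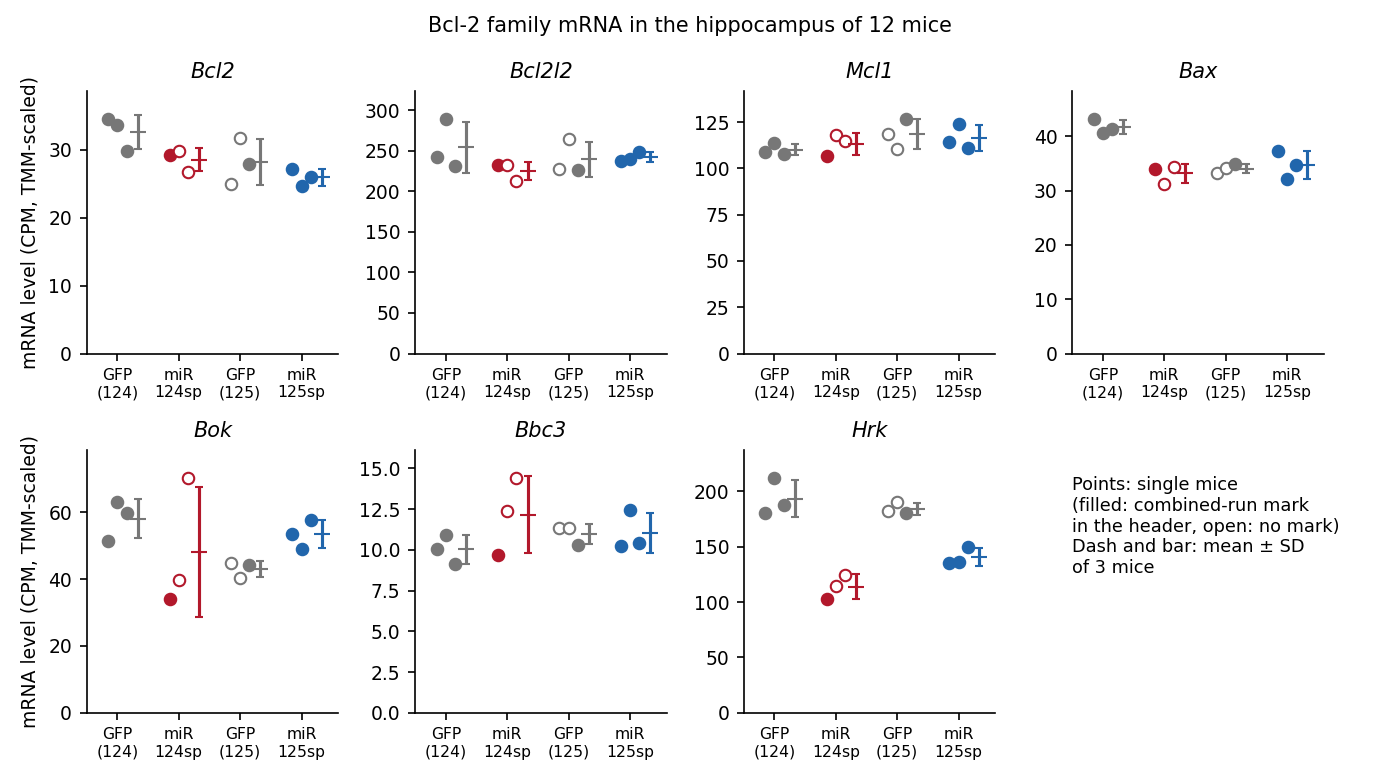
mRNA level (CPM, TMM-scaled, axes from 0) of 7 members in 12 mice, as GFP and sponge mice of the miR-124 and miR-125 experiments; points are mice, open where the header lacks the combined-run mark, with mean ± SD (n = 3 mice). Hrk is lower in all sponge mice than in all GFP mice, Bax is high in the GFP mice of the miR-124 experiment, and 1 miR124sp mouse stands apart for Bok.

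An interaction term in a fit of all 12 mice compared the effects of the sponges. Hrk and Bax passed, where 14.4% of the 13413 genes did, 7.38% with a higher and 7.06% with a lower effect of miR124sp. The effect of miR124sp minus that of miR125sp was −0.37 ± 0.11 for Hrk (edgeR adjusted p = 0.0345) and −0.36 ± 0.10 for Bax (adjusted p = 0.0269). Neither call was firm. That of Hrk was lost without GFP replicate 20 of the miR-124 experiment (adjusted p = 0.0720), the miR-125 experiment's GFP replicates 14 (0.0848) or 4 (0.0910), miR124sp replicates 14 (0.103) or 2 (0.0820), or miR125sp replicates 6 (0.0553) or 9 (0.0881). That of Bax was lost without GFP replicate 15 of the miR-124 experiment (0.0745), the miR-125 experiment's GFP replicates 14 (0.0729) or 4 (0.0539), miR124sp replicate 2 (0.0874), or miR125sp replicates 24 (0.0778) or 9 (0.0631). With the combined-run mark as a term, the difference of Bax was also lost (−0.29, adjusted p = 0.221) and that of Hrk was −0.55 (adjusted p = 0.0491). Bok had the widest difference, −0.59 ± 0.27, which did not pass (adjusted p = 0.159), and it passed without miR124sp replicate 9 (−0.94, adjusted p = 0.000284).

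**Figure D5:**
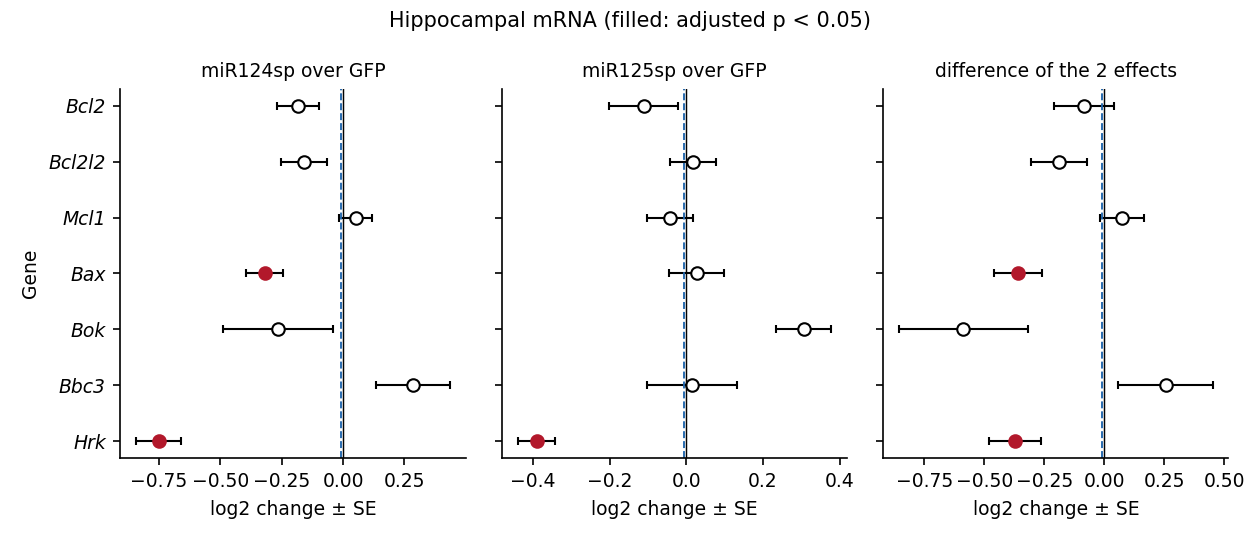
Log2 changes with standard errors (edgeR, n = 3 mice per group) of hippocampal mRNA for 7 members, for miR124sp, miR125sp and the difference of the 2 effects, each panel with its own axis; filled points passed an adjusted p of 0.05 and the dashed line is the median of all genes. Hrk is filled in all 3 panels and Bax in the first and the last.

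Markers of other cells moved in the miR-124 experiment as well. Over all 13111 genes, 12.5% were called higher there and 10.7% lower. Of 12 oligodendrocyte markers tested, 9 were higher with miR124sp, and their sum was 1342 to 1715 CPM against 991 to 1077 in the GFP mice. Astrocyte markers were lower in 6 of 12 (sum 8165 to 8607 against 9842 to 11888), microglia markers in 6 of 9 (704 to 733 against 800 to 894), and of 14 neuron markers 5 were higher and 1 lower (7334 to 7703 against 6487 to 7211). These moved with the fall of Hrk and Bax, and their part in it was not tested. In the miR-125 experiment the oligodendrocyte sums overlapped (926 to 1087 against 851 to 1133) with no member of the list called, the astrocyte sum was 7626 to 7947 against 7918 to 8692, also overlapping, with 1 of 12 lower (Aqp4, −0.35, edgeR adjusted p = 0.0467), the microglia sum was 651 to 671 against 724 to 751 with 1 of 9 lower (C1qa), and the neuron sum 7941 to 8175 against 7017 to 7421 with 1 of 14 higher (Snap25). Over all genes 0.0548% were called higher with miR125sp and 0.172% lower. The part of these markers in the fall of Hrk with miR125sp was not tested.

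Hrk could not be followed in the AGO2-bound RNA, so the change in its mRNA stands without a RIP value. For Mcl1, whose AGO2-bound RNA was lower with miR124sp, the mRNA differed from GFP by 0.05 on the log2 scale. Bbc3 had the highest AGO2 enrichment of the 6 and one of the lowest mRNA levels per length, and Bcl2l2 had the highest mRNA level per length. The mice of the RIP-seq and the mRNA-seq were different animals with different vectors.

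Other genes of the mitochondrial route were followed through lists of related genes. Of 15 further Bcl-2 family genes, 3 were tested in the RIP-seq and all of them were higher than in sham, as were 59.4% of all 3′UTRs: Bcl2l13 (2.47 ± 0.30 on the log2 scale), Bnip3 (1.83 ± 0.30) and Bid (edgeR adjusted p = 0.00278). None was called with either sponge. Of 12 tested in mRNA, Bnip3, a BH3-only-like gene induced by hypoxia, was lower with miR124sp (−0.24 ± 0.07, edgeR adjusted p = 0.0352), where 10.7% of all genes were, and none passed the test with miR125sp.

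Downstream of the family, 6 of 9 tested genes of the apoptosome and caspase list were higher in AGO2-bound RNA than in sham, near the 59.4% of all 3′UTRs, led by Dffa (3.47 ± 0.32), the inhibitor of the apoptotic nuclease, Casp9 (3.36 ± 0.31), the caspase of the apoptosome, and Casp2 (2.79 ± 0.39). With miR124sp the AGO2-bound RNA of Cycs, which encodes cytochrome c, was higher than with miR292sp (1.02 ± 0.25, edgeR adjusted p = 0.0196). It was the 1 of 9 called, with TMM scaling, where 5.1% of all 3′UTRs were higher. In mRNA, Cycs (−0.30 ± 0.06, edgeR adjusted p = 0.0108) and Casp6 (−0.69 ± 0.20, adjusted p = 0.0343) were lower with miR124sp, as 2 of 11 tested against 10.7% of all genes, and none of 11 was called with miR125sp. Of 3 inhibitors of apoptosis proteins tested in the RIP-seq, Birc6 was the 1 called higher than in sham (2.54 ± 0.30), against 59.4% of all 3′UTRs. Xiap was not called against sham. It was the 1 of 3 called with miR124sp (0.83 ± 0.19, edgeR adjusted p = 0.0139), where 5.1% of all 3′UTRs were higher. With miR125sp Xiap was again the 1 called (0.77 ± 0.19, edgeR adjusted p = 0.0470), where 1.18% were higher. These rises are on the TMM scale. In mRNA with miR124sp 1 of 6 was higher, Birc6 (0.47 ± 0.07), and 1 lower, Birc2 (−0.27 ± 0.07), against 12.5% and 10.7% of all genes.

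Upstream, 16 of 18 tested regulators, with 21 3′UTR rows, were higher in AGO2-bound RNA than in sham. A gene was counted as higher if any of its rows was, whereas the share of 59.4% of all 3′UTRs counts single rows. The regulators were led by Foxo3 (4.78 ± 0.26), a transcription factor that induces BH3-only genes, Mapk8 (3.45 ± 0.26), the stress kinase Jnk1, and Gsk3b (2.59 ± 0.23). Foxo3 was lower in AGO2-bound RNA with miR124sp than with miR292sp (−0.91 ± 0.22, edgeR adjusted p = 0.0176) and its mRNA was higher (0.56 ± 0.11, adjusted p = 0.00835). Ywhaz (0.56 ± 0.16) and Usp9x (0.80 ± 0.23), which encode a 14-3-3 protein that holds Bad and a deubiquitinase that stabilises Mcl-1, were higher in AGO2-bound RNA with miR124sp. Of the 18 upstream genes, 3 were higher there and 1 lower, against 5.1% and 3.46% of all 3′UTRs. Scaled to the genes around Gapdh, only 17 of the 8203 3′UTRs were called higher with miR124sp, so higher calls depend on the TMM scaling. In mRNA with miR124sp 5 of 17 upstream genes were higher, against 12.5% of all genes, among them Gsk3b (0.43 ± 0.09), and Dynll1, a dynein light chain that can hold Bim, was lower (−0.52 ± 0.08, adjusted p = 0.00442). With miR125sp its relative Dynll2 was the 1 upstream gene of 16 called, and higher (0.50 ± 0.07, adjusted p = 0.0324). Of the death receptor list, 3 of 4 were higher in AGO2-bound RNA than in sham, against 59.4% of all 3′UTRs (Tnfrsf21, 3.29 ± 0.27, Cflar, 3.30 ± 0.44, and Fadd, 2.16 ± 0.58), and none of 8 passed the test in mRNA.

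Between the mRNA experiments, which share no mice, 4 genes were lower in both: Hrk, Aqp4, C1qa and Ifit3. These are 18.2% of the 22 genes lower with miR125sp, where 10.7% of all genes were lower with miR124sp. They are 0.284% of the 1409 lower with miR124sp, where 0.172% of all genes were lower with miR125sp. The overlap was not tested. The names other than Hrk were chosen after their values were seen, and Hrk, as a member, with earlier results of these data known. Aqp4 marks astrocytes, C1qa microglia, and Ifit3 is an interferon-induced gene.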

How the data were processed

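The authors deposited raw counts per library, as whole numbers, for 3′UTRs (38158 rows by Ensembl transcript) and for RefSeq transcripts (32850 rows), together with feature lengths. The submitters' processing notes name STAR, edgeR and mm10, whereas the study's methods name mm9, with DESeq used on the mRNA. The read counter and its strand setting were not given in the sources used here. Some 82.7% of the 3′UTR rows matched GENCODE M1 on NCBIM37 in length, which gave names (98.0% of rows) and positions. RefSeq symbols were found for 98.7% of transcripts, the remainder holding 0.849% of counts, and counts were summed per symbol.

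3′UTRs with at least 10 counts in every library (8203 rows) and genes passing filterByExpr were tested with edgeR 4.0.16 (quasi-likelihood) in R 4.3.3, with Benjamini-Hochberg adjustment over all features and a threshold of 0.05. The 8 RIP libraries shared 1 fit, with the study's scaling to the genes around Gapdh against sham and TMM otherwise. The p-values against sham do not allow for the choice of these genes by the same contrast. The mRNA experiments were fitted separately, on 6 mice each. DESeq2 1.42.0 was an alternative. The tests were tried on simulated data with 200 changed genes. CPM values use TMM scaling over all libraries of an assay, except the marker sums of the RIP libraries, which are per library total. Errors are standard errors of the fits unless given as SD. The libraries of a group differed by more than sampling noise, and p-values measure the spread between these libraries. All precision statements are limited by 2 libraries or 3 mice per group.

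Named were all members and, of each other list, up to 3 genes with the smallest p past the threshold. For the 3 members with the most RIP counts, the up to 3 most similar 3′UTRs were named, of which 1 is not reported here. The members and lists were chosen with earlier results of these data known. miRNA sequences are from RefSeq (GRCm38.p6 tables) and 3′UTR letters from NCBIM37. Python 3.11.15, numpy 2.4.6, pandas 2.3.3 and matplotlib 3.10.9 were used.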

Additional observations from a re-analysis of the deposited data

Results flagged for a closer look

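For Hrk and Bax the effects of the sponges on hippocampal mRNA differed by the interaction test in edgeR, but neither call was firm. That of Hrk was lost in 7 of 12 fits that left out 1 mouse. That of Bax was lost in 6 of 12, and also with the combined-run mark as a term. The effect of miR124sp minus that of miR125sp was −0.37 for Hrk (effects of −0.75 and −0.39, lower in 3 of 3 sponge mice than in every GFP mouse in either experiment) and −0.36 for Bax (effects of −0.32 and 0.03). The GFP mice of the miR-124 experiment had 41.7 ± 1.37 CPM of Bax (SD, n = 3 mice), against 34.0 ± 0.840 in those of the miR-125 experiment. The miR124sp mice had 33.1 ± 1.75 and the miR125sp mice 34.7 ± 2.55. For Hrk the levels were 194 ± 16.5 and 184 ± 5.41 in the GFP mice of the miR-124 and miR-125 experiments. They were 114 ± 11.0 with miR124sp and 141 ± 8.06 with miR125sp.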

How the results depend on the processing

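Of 541 member tests under other settings, 471 kept their direction and their side of the threshold, 36 lost the call, 17 gained it and 17 turned direction. Against sham, 3 members instead of 6 were called with TMM or DESeq2, of 3331 and 3415 3′UTRs instead of 4920. With the genes around Gapdh as the scale, 6 members were called with miR124sp and 4 with miR125sp, and Bcl2 with miR125sp turned to −0.55. With miR125sp, 1 member (Mcl1) was called in DESeq2, without a count filter, or with the 4 libraries compared alone. In mRNA with miR125sp, 2 members were called in DESeq2 or without a filter and 0 with all 12 mice, with the run mark as a term or without the unmarked mice. The difference between the sponges kept 1 member (Hrk) with the mark as a term and lost Bax. Without the unmarked mice, which leaves 1 miR124sp mouse, Bbc3 and Mcl1 were at −0.038, and with the mark as a term Bax turned to −0.0033 with miR125sp and Bbc3 to −0.13 for the difference. The cause of these changes was not tested. Over all features, 702 3′UTRs were called with miR124sp, but 4122 on the Gapdh scale, 1163 in DESeq2 (45.1% of them higher), 396 under filterByExpr and 1123 with 4 libraries. With miR125sp they were 116, against 3150, 375 (58.1% higher), 35 and 514, and 282 without a filter, and between the sponges 1, against 0 under filterByExpr and 13 without a filter. In mRNA with miR125sp 29 genes were called, against 141 in DESeq2, 206 without a filter, 11 with 12 mice, 0 with the mark and 19 without the unmarked mice, and for the difference 1937, against 688 with the mark.

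Leaving out 1 library gave 0 to 1 members called for AGO2-bound RNA with miR124sp, 1 to 3 for mRNA with miR124sp, 0 to 1 for mRNA with miR125sp and 0 to 3 for the difference. Over all features it gave 60 to 312 calls instead of 702 for AGO2-bound RNA with miR124sp, 6 to 20 instead of 116 with miR125sp, 980 to 4062 instead of 3046 for mRNA with miR124sp, 0 to 109 instead of 29 with miR125sp and 1111 to 2990 instead of 1937 for the difference. Values that turned direction were, in AGO2-bound RNA with miR125sp, Bok (−0.44 to 0.30), Bax (−0.87 to 0.010) and Bcl2 (−0.17 to 0.62), between the sponges Bbc3 (−0.15 to 0.10), and in mRNA with miR125sp Bax (−0.028 to 0.080), Bbc3 (−0.066 to 0.069), Bcl2l2 (−0.025 to 0.094) and Mcl1 (−0.085 to 0.015). No paired analysis was possible because the groups compared share fewer than 2 replicate numbers. With 2 libraries a group and 13 to 37 sham counts for Bbc3 and Bax, changes of these genes are known only within wide limits.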
